A study of Mus musculus with 3 samples.

Results

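The genes of the Arp2/3 complex were followed in the transcriptomes of mouse embryos at E6.5. They are 10 of the 23421 gene symbols of the expression table and were taken by name: *Actr2*, *Actr3*, *Actr3b*, *Arpc1a*, *Arpc1b*, *Arpc2*, *Arpc3*, *Arpc4*, *Arpc5* and *Arpc5l*. All 10 were found. The set was chosen by gene name and selected on earlier results of the same table, among them the FPKM of 0 that *Actr3* has in wild type alone. That value and the other *Actr3* levels are therefore given as a description.

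The series holds 3 libraries, 1 each from wild-type, tw18/+ and tw18/tw18 embryos of strain 129/SvEv, all from crosses between tw18/+ animals. In its in situ hybridizations at E6.5, the study found the mutant embryos slightly younger. It also proposes that genetic backgrounds that were not inbred might add to variation between embryos. Whether the libraries match in stage and background was not tested. The tw18 haplotype carries a large deletion on chromosome 17 that removes *Ppp2r1a*, the scaffold subunit of protein phosphatase 2A, together with many other genes, and none of the 10 subunit genes lies on that chromosome. The labels name the tissue as epiblast, whereas the study's text describes the embryo proper with its visceral endoderm, and the number of embryos per library is not given in the sources used here. With 1 library for each genotype no difference has a replicate check, so no p-value is given.

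The Arp2/3 complex nucleates actin. It docks on the side of an existing filament and starts a new one as a branch, and the branched networks it builds push the membrane forward in spreading and migrating cells and line cell contacts. *Actr2* and *Actr3* encode the actin-related proteins ARP2 and ARP3, which together imitate the first subunits of a new filament. The products of *Arpc2* and *Arpc4* clamp the complex to the mother filament, while ARPC1, ARPC3 and ARPC5 complete it. The complex has 7 positions, and ARP3, ARPC1 and ARPC5 can each be filled by either of a pair of paralogs, so that complexes of different composition can form in a cell.

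Values are FPKM, the fragments on a gene per kilobase of transcript, scaled to the mapped fragments of the library, which can be compared between genes and is relative to the rest of each library. Summed over the table, FPKM reached 444064 in wild type, 455078 in tw18/+ and 383409 in tw18/tw18. From the spacing of low values, the tw18/+ library was about 1.42 times and the tw18/tw18 library about 1.40 times as deep as wild type. *Ppp2r1a* stood at 146 FPKM in wild type, 81.7 in tw18/+ and 12.8 in tw18/tw18. The order was that of the labelled genotypes, but a gene that the deletion removes was still listed above 0 in tw18/tw18, and the source of these fragments was not tested. Markers of the labelled tissue and of other cell types differed between the libraries. The summed FPKM of 10 epiblast markers was 2215 in wild type, 2375 in tw18/+ and 1142 in tw18/tw18, and 5 of the 10 were lower in tw18/tw18 than in wild type by 1 or more on the log2 scale. The 10 visceral endoderm markers summed to 906, 892 and 1173 FPKM in the same order, with 0 past that size. By the same measure, 5 of 6 stromal, 5 of 8 endothelial, 5 of 8 decidual and 6 of 7 extra-embryonic ectoderm markers that could be compared were higher. The decidual prolactin genes *Prl8a2* (1504, 155 and 377 FPKM) and *Prl3c1* (121, 13.2 and 25.2) were lower than in wild type, and lowest in tw18/+. Over all 12625 genes compared between tw18/tw18 and wild type, 13.8% were higher and 6.42% lower by that measure. In pooled tissue of this kind, fewer cells of a type and less RNA per cell cannot be told apart.

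The Arp2/3 genes are spread over the genome, and only *Arpc1a* and *Arpc1b* are neighbours. In GRCm38, *Arpc1a* lies on chromosome 5 from 145083830 to 145108761 and *Arpc1b* follows on the same strand from 145114215 to 145130705, with 5453 bases between them. Promoter sequences of RefSeq (GRCm38.p6) were found for 8 of the 10 genes, and the 250 bases before the transcription start used there were searched. By the GENCODE gene coordinates, the *Arpc1a* and *Arpc1b* windows reach into the gene and the *Arpc2* window lies inside it. A pattern chosen after these sequences had been read was CGGAAGT, a site of ETS-family factors that extends their GGAA core, or its reverse complement ACTTCCG. It occurred in 5 of the 8 windows, those of *Actr3*, *Arpc1a*, *Arpc2*, *Arpc3* and *Arpc4*, against 4.98% of 27025 windows of the same length over all genes and 12.6% of 4126 windows of genes that reached 10 FPKM in each of the 3 libraries. The GC box GGGCGG was found in 5 of the 8, against 32.9% of all windows and 63.6% of those of such expressed genes. CCAAT was found in 2, against 34.5% and 37.9%, and TATAAA in 0, against 13.0% and 5.33%, each searched on both strands. No CGGAAGT match shared bases with a GC box in these 8 windows. The windows of the neighbouring ARPC1 paralogs and of *Actr3* are printed 5′ to 3′ on the strand of the gene because these genes carry the contrasts described here, with CGGAAGT or ACTTCCG in capitals. They run from chr5:145083619-145083868 for *Arpc1a* (plus strand), chr5:145114006-145114255 for *Arpc1b* (plus strand) and chr1:125435728-125435977 for *Actr3* (minus strand).
Arpc1a: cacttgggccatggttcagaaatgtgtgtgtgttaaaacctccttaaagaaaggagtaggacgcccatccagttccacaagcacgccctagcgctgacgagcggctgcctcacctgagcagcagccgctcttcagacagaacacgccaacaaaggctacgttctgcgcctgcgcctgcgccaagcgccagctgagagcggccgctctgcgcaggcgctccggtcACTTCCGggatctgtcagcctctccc
Arpc1b: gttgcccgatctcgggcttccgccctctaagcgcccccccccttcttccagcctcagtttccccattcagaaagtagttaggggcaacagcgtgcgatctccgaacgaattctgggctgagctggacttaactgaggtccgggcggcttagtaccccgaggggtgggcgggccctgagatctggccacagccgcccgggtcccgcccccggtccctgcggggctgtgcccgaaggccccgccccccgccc
Actr3: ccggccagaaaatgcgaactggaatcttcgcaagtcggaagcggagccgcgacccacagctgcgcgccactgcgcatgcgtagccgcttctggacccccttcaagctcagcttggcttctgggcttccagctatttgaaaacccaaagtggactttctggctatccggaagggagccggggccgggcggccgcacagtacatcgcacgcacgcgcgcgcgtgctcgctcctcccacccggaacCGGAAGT
*Arpc1a* has the element close to the end of its window and *Actr3* at the very end, while the *Arpc1b* window does not contain these letters. By the GENCODE coordinates the *Arpc1a* element lies past the start of the gene. A match is a description of the sequence and no evidence of binding.

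The ARP core was covered by *Actr2* and *Actr3*, with little *Actr3b*. *Actr2* was at 41.3 FPKM in wild type, 46.8 in tw18/+ and 46.5 in tw18/tw18. Its log2 ratio against wild type was 0.18 in tw18/+ and 0.17 in tw18/tw18, so both libraries with the deletion stood slightly above wild type and level with each other. *Actr3*, on chromosome 1 from 125392905 to 125435727, had an FPKM of 81.5 in tw18/+ and 76.8 in tw18/tw18, and it was listed at 0 in wild type. In the libraries that list it, it was the second most abundant subunit gene in tw18/+ and the third in tw18/tw18. At the estimated depth, these levels came from about 4126 and 3842 fragments, and they would have given about 2916 and 2749 fragments in the wild-type library. An exact 0 in a table of this kind can be a failed estimate, and no fold change is given for it.

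**Figure D1:**
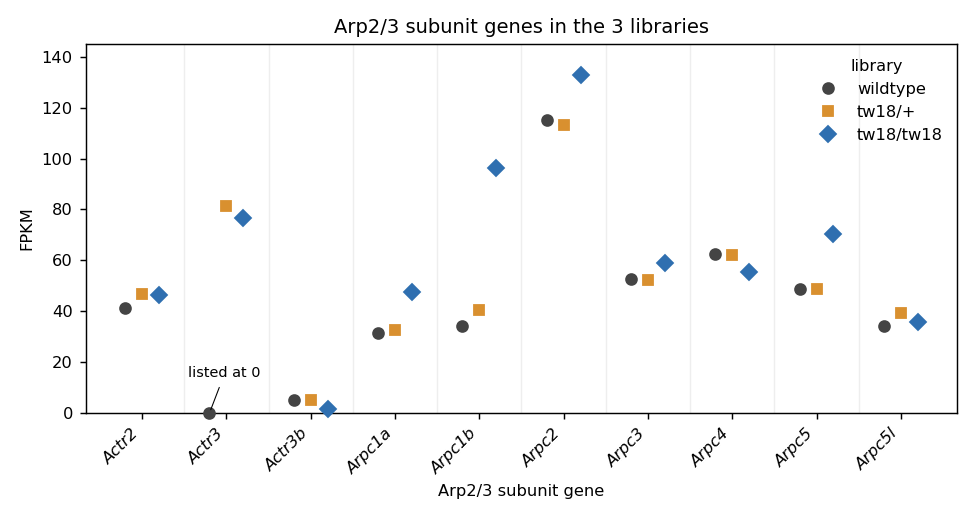
FPKM (vertical axis, linear) of each of the 10 Arp2/3 subunit genes in the wildtype (circles), tw18/+ (squares) and tw18/tw18 (diamonds) libraries, 1 point per library. *Arpc1b* is high in tw18/tw18 at 96.1, *Arpc1a* and *Arpc5* are also highest there at 47.6 and 70.3, *Actr3b* is lowest there at 1.49, and *Actr3* is listed at 0 in wildtype alone.

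The 0 of *Actr3* was among the values on which the set was selected, so its place in the wild-type column is a description. At a minimum of 1 FPKM in both other libraries, 31 genes were listed at 0 in wild type alone. Of the 5584 genes at 10 FPKM or more in both tw18/+ and tw18/tw18, *Actr3* was the only one listed at 0 in wild type. The other columns hold a few entries of the same kind, namely *Dnmt3a*, listed at 0 in tw18/+ alone, and *Lars2* and *Cdk8*, listed at 0 in tw18/tw18 alone. The genes nearest to *Actr3* in this pattern were *Snord104*, with an FPKM of 5.68 in tw18/+ and 14.3 in tw18/tw18, *Moap1* with 3.03 and 4.26, *Spink8* with 2.29 and 11.3, *Mir669j* with 2.14 and 3.88, and *Hspb6* with 1.92 and 1.85. All of them were listed at 0 in wild type, and their lower value was at most 5.68, against 76.8 for *Actr3*.

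**Figure D2:**
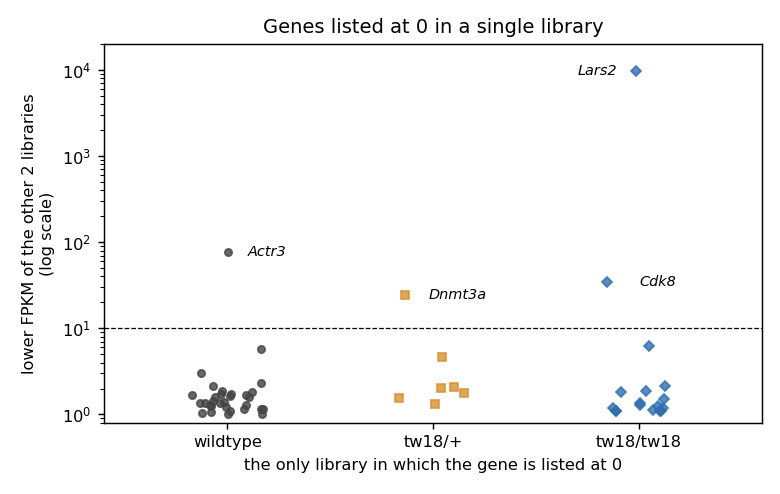
Genes listed at 0 in exactly 1 library and with an FPKM of at least 1 in both others, placed by the library that lists them at 0. The vertical axis is the lower FPKM of the other 2 libraries on a log scale and the dashed line marks 10. In wildtype 31 genes are shown and *Actr3*, at 76.8, stands alone above the line.

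The nearest gene of the table on the side of higher coordinates, *Slc35f5*, a solute carrier gene, was not at 0 in wild type, with 10.2 FPKM there, 8.49 in tw18/+ and 8.21 in tw18/tw18. On the other side the nearest gene, *Dpp10*, was close to 0 in every library, and *Ddx18*, an RNA helicase gene beyond it, had 101.5, 99.9 and 60.1 in the same order. These neighbours were named after their values were seen. Of the 4771 words of 50 bases in annotated *Actr3* transcripts, 26.3% also occurred in 2 other annotated genes, *Gm8822* and *Gm15899*, neither of which is in the table. None of these words was shared with *Actr3b*. Among the 10 subunit genes this was the highest share, followed by *Arpc1b* with 24.3% and *Arpc4* with 234 of 2334 words, and it was 1.73% or less for the other 7. *Arpc1b* and *Arpc4* were listed above 0 in all 3 libraries, and whether shared sequence has a part in the 0 of *Actr3* was not tested.

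*Actr3b*, on chromosome 5 from 25759997 to 25850688, encodes a close relative of ARP3. It had the lowest level of the subunit genes apart from the listed 0 of *Actr3*, at 4.95 FPKM in wild type, 5.24 in tw18/+ and 1.49 in tw18/tw18. The values of wild type and tw18/+ lay close together, and tw18/tw18 was 3.32 times lower than wild type and 3.51 times lower than tw18/+. The log2 ratio of tw18/tw18 to wild type was -1.73, with a 95% interval from -2.26 to -1.25 that covers counting error only, since it rests on about 115 and 48 fragments and not on replicates. *Actr3b* made up 6.05% of the summed *Actr3* and *Actr3b* level in tw18/+ and 1.91% in tw18/tw18. For wild type this share has no meaning because *Actr3* is listed at 0. *Xrcc2*, the nearest gene of the table on the side of lower coordinates, had 4.98, 6.57 and 5.79 in the same order.

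The ARPC1 position held the only subunit gene that was higher past the threshold, a log2 ratio of 1, in tw18/tw18. *Arpc1b* was at 34.2 FPKM in wild type, 40.6 in tw18/+ and 96.1 in tw18/tw18. The tw18/+ library stood slightly above wild type, and tw18/tw18 stood 2.81 times above wild type and 2.37 times above tw18/+. In tw18/tw18 the log2 ratio of *Arpc1b* was 1.49 against wild type (95% counting interval 1.41 to 1.57) and 1.24 against tw18/+ (1.18 to 1.31). Between tw18/+ and wild type it was 0.25 (0.15 to 0.34), the highest of the subunit genes in that comparison. By level, *Arpc1b* was at rank 2250 among the genes of wild type and at rank 611 in tw18/tw18. *Arpc1b* encodes the form of ARPC1 that is prominent in blood cells. *Arpc1a*, its widely expressed paralog, was at 31.6, 32.8 and 47.6 FPKM, a log2 ratio of 0.59 in tw18/tw18 that stayed under the threshold of 1.

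The balance within the pair differed in the same library. *Arpc1b* transcripts were 1.08 times those of *Arpc1a* in wild type, 1.24 times in tw18/+ and 2.02 times in tw18/tw18, or 52.0%, 55.3% and 66.9% of the pair. This ratio is taken within a library and is not altered by the scaling of the libraries. The summed level of the pair was 65.8, 73.4 and 144 FPKM. ARPC1 thus made up 15.7% of the summed level of the 6 positions other than ARP3 in wild type and 26.4% in tw18/tw18, where it stood above ARPC2 as the most abundant position. *Pdap1*, on the opposite strand and overlapping the end of *Arpc1b*, had 82.9, 88.1 and 68.8 FPKM and was thus lowest where *Arpc1b* was highest. It was the leading other gene among those that share the 24.3% of *Arpc1b* words, and the strand setting of the counting is not given in the sources used here.

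**Figure D3:**
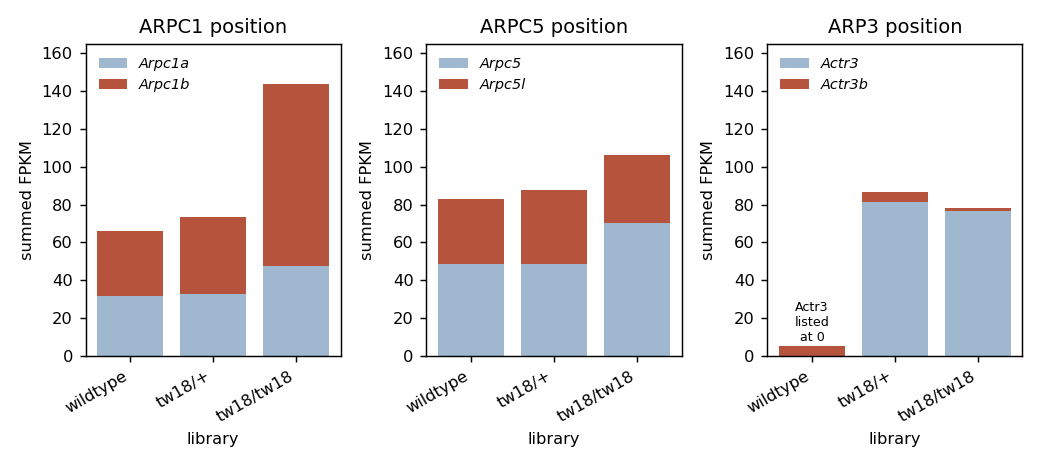
Summed FPKM of the paralogs that fill the ARPC1, ARPC5 and ARP3 positions, stacked by gene, in each of the 3 libraries, where bars start at 0 and have no error bars because each is 1 library. The ARPC1 bar of tw18/tw18 reaches 144, mostly *Arpc1b*, while the wildtype ARP3 bar holds *Actr3b* alone because *Actr3* is listed at 0.

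The clamp subunits showed small differences. *Arpc2*, the most abundant subunit gene in all 3 libraries, was at 115 FPKM in wild type, 113 in tw18/+ and 133 in tw18/tw18, a log2 ratio of 0.22 in tw18/tw18. *Arpc4* had 62.3, 62.2 and 55.3, a log2 ratio of -0.17 in tw18/tw18 that became 0.04 when libraries were rescaled to equal FPKM sums. *Arpc4* overlaps *Ttll3* on the same strand, a tubulin glycylase gene at 1.07 FPKM in wild type and 3.22 in tw18/tw18, so that their fragments may not be told apart. The log2 ratios of the clamp genes thus lay on opposite sides of 0 as deposited.

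Of the peripheral subunits, *Arpc3* was at 52.8 FPKM in wild type, 52.4 in tw18/+ and 58.9 in tw18/tw18. *Arpc5* had 48.8, 48.7 and 70.3, the same level in wild type and tw18/+ and a log2 ratio of 0.53 in tw18/tw18. Its paralog *Arpc5l* had 34.4, 39.3 and 35.7, highest in tw18/+, and overlaps the abundant ribosomal protein gene *Rpl35* on the opposite strand. *Arpc5l* transcripts were 0.704 times those of *Arpc5* in wild type, 0.805 times in tw18/+ and 0.508 times in tw18/tw18. The share of *Arpc5* in its pair was thus 58.7%, 55.4% and 66.3%.

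Between tw18/+ and wild type, 0 of the 9 subunit genes with a ratio passed a log2 ratio of 1 in either direction, where 491 of all 12281 genes compared (4%) were higher and 4.66% lower, 8.66% together. The 9 ratios lay between -0.02 and 0.25 with a median of 0.05, and the central 50% of all genes lay between -0.23 and 0.22 with a median of 0.00. A ratio needed both values above 0 and the higher at least 1 FPKM, so *Actr3* had none against wild type. Between tw18/tw18 and wild type, 1 of 9 subunit genes was higher (*Arpc1b*) and 1 lower (*Actr3b*), where 13.8% of 12625 genes were higher and 6.42% lower, 20.2% together. These counts are close to what the percentages of all genes give for 9 genes. The median of the 9 was 0.17, with 7 above 0, against a median of -0.02 and a central 50% from -0.39 to 0.52 over all genes. Between tw18/tw18 and tw18/+, where *Actr3* can be included, *Arpc1b* was again higher and *Actr3b* lower among 10, where 14.3% of 12703 genes were higher and 5.30% lower, 19.6% together. In that comparison *Actr3* had a log2 ratio of -0.08 and the median of the 10 was 0.08. The comparisons with wild type share that library, and both with tw18/tw18 share the tw18/tw18 library, so they are not independent.

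**Figure D4:**
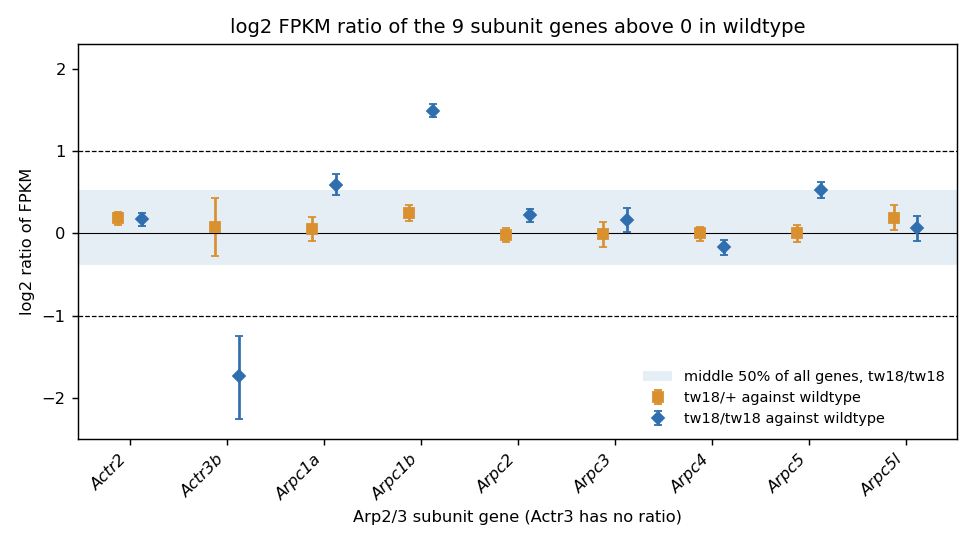
log2 ratio of FPKM to wildtype for the 9 subunit genes with a value above 0 in wildtype, in tw18/+ (squares) and tw18/tw18 (diamonds). Error bars are 95% intervals for counting error only, dashed lines mark a log2 ratio of 1 in either direction and the shaded band the central 50% of all genes in tw18/tw18, from -0.39 to 0.52. *Arpc1b* and *Actr3b* lie outside the dashed lines in tw18/tw18, and no gene does in tw18/+.

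Just inside and outside the threshold in tw18/tw18, the smallest size past it was 1.49 (*Arpc1b*) and the largest under it 0.59 (*Arpc1a*), so no subunit gene lay near 1. Without the paralogs of low or shifting level, the single-gene positions ARP2, ARPC2, ARPC3 and ARPC4 had log2 ratios between -0.17 and 0.22. Over the 6 positions other than ARP3, the highest was 2.77 times the lowest in wild type. With ARP3 included, it was 2.42 times in tw18/+ and 3.09 times in tw18/tw18. ARP2, filled by *Actr2*, was the lowest of these positions in each library, with ARP3 left out in wild type.

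The genes that act on the complex or beside it were taken from 8 lists of 79 genes. In tw18/tw18 against wild type, 10 of the 75 that could be compared were higher and 5 lower, or 13.3% and 6.67%, near the 13.8% and 6.42% of all genes, and their median log2 ratio was 0.07. Between tw18/+ and wild type, 3 of 75 were higher (*Nckap1l*, *Hcls1* and *Fhod3*) and 0 lower, where 4% of all genes were higher and 4.66% lower. Between tw18/tw18 and tw18/+, 6 of 77 were higher and 6 lower, 7.79% each, where 14.3% of all genes were higher and 5.30% lower. The activators and their partners had 4 of 9 genes higher and 0 lower, with a median of 0.47. *Was*, which encodes the WASP protein of blood cells, was at 0.795 FPKM in wild type, 1.11 in tw18/+ and 3.71 in tw18/tw18. *Wipf1*, whose product binds and stabilizes WASP, had 5.47, 5.59 and 13.7. *Nckipsd*, a partner of the complex with 3.08, 4.39 and 6.47, and *Whamm*, an activator on internal membranes with 1.34, 1.86 and 2.70, were just past the threshold at 1.07 and 1.01. The more abundant activators *Cttn*, which encodes the branch-stabilizing cortactin, and *Wasl*, the ubiquitous relative of *Was*, had log2 ratios of 0.47 and -0.10.

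The WAVE complex, which activates Arp2/3 at the leading edge, had 2 of 11 genes higher and 2 lower. Of all genes, 13.8% were higher and 6.42% lower. The higher pair was *Nckap1l*, the blood-cell form of NCKAP1, with an FPKM of 0.599, 2.25 and 3.77, and *Abi3*, with 1.12, 2.05 and 3.68. The lower pair was *Wasf1*, with 35.3, 28.6 and 14.7, and *Wasf3*, with 5.72, 5.54 and 2.53, both encoding WAVE proteins. *Wasf2*, the third WAVE gene, had a log2 ratio of 0.14, and the abundant members *Brk1* and *Nckap1* had -0.27 and -0.13. *Nckap1l* was higher in tw18/+ than in wild type as well, by a log2 ratio of 1.91.

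**Figure D5:**
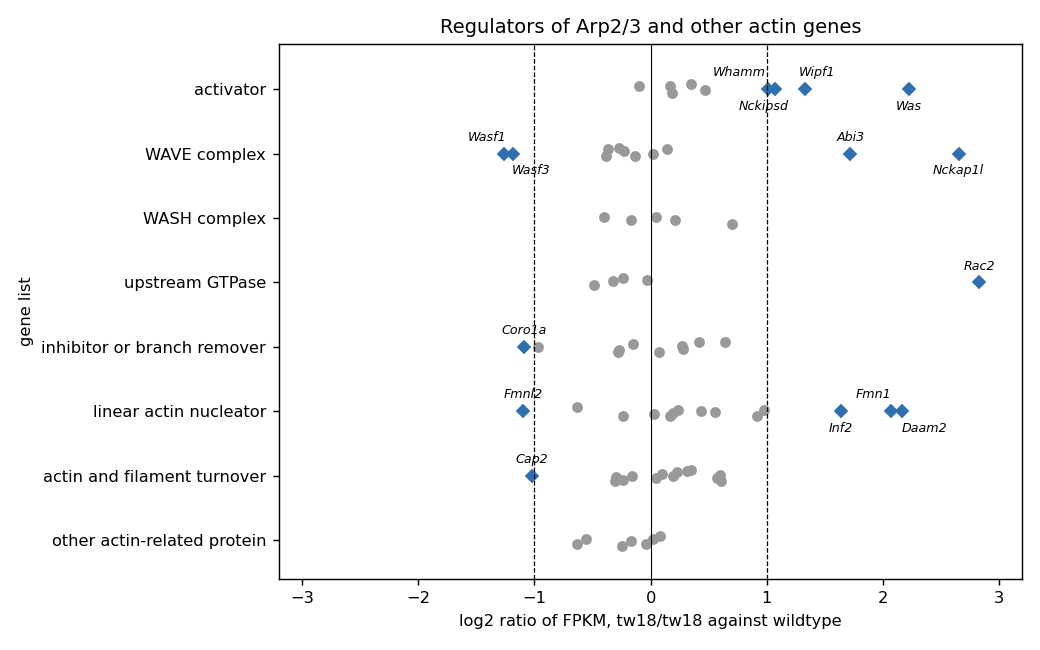
log2 ratio of FPKM in tw18/tw18 against wildtype (horizontal axis) for the genes of 8 lists (vertical axis) that had both values above 0 and the higher at least 1 FPKM, 1 point per gene. Diamonds with names are genes past a log2 ratio of 1 in either direction, marked by dashed lines, and circles are the others; 10 lie to the right and 5 to the left.

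Of the 5 genes of the WASH complex, which activates Arp2/3 on endosomes, 0 were past the threshold, where 20.2% of all genes were. The most abundant, *E430025E21Rik* and *Fam21*, had log2 ratios of -0.17 and 0.05. Among the upstream GTPases, *Rac1* and *Cdc42*, which switch on WAVE and N-WASP, had -0.24 and -0.03. *Rac2*, the blood-cell form, was higher from a low level, with 0.167, 0.478 and 1.19 FPKM. No counting interval was computed for the genes of these lists, so calls at such low levels are the least certain. Of 10 inhibitors and branch removers, *Coro1a*, the coronin of blood cells, was lower, with 2.86, 4.16 and 1.34, and *Coro1b* and *Coro1c* had 0.42 and 0.07.

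Formins and other nucleators of unbranched filaments had 3 of 14 genes higher and 1 lower, where 13.8% of all genes were higher and 6.42% lower. *Inf2*, a formin that also severs filaments, was at 17.7 FPKM in wild type, 15.2 in tw18/+ and 55.4 in tw18/tw18, and *Daam2* had 1.75, 1.41 and 7.84. *Fmn1* was higher from a low level, with 0.349, 0.715 and 1.47, and *Fmnl2* was lower, with 27.8, 21.6 and 13.0. *Diap1*, the most abundant of them on average, had a log2 ratio of -0.24. Of the 14 genes for actin and filament turnover, only *Cap2* passed the threshold, with 1.94, 2.31 and 0.955. The actin genes *Actb* and *Actg1* had log2 ratios of 0.19 and -0.16. The other actin-related proteins, which belong to dynactin and to chromatin remodelling complexes, had 0 of 7 past the threshold, with *Actl6a* at -0.56 and *Actr1b* at -0.25.

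Because ARPC1B, WASP, NCKAP1L, RAC2 and the product of *Coro1a* are known from blood cells, the immune markers of the same libraries are given beside them. Of the genes for these proteins, *Coro1a* was lower in tw18/tw18 than in wild type, at 1.34 against 2.86 FPKM, and the others were higher. These genes were named because they passed the threshold, so the direction most of them share says nothing about blood-cell genes as a group. *Hcls1* and *Gmfg*, list genes also known from blood cells, were not called in that comparison. *Hcls1* had 0.144 FPKM in wild type, 1.39 in tw18/+ and 0.491 in tw18/tw18, and *Gmfg* had 3.63, 5.00 and 5.65. Of 10 markers, 1 was at 0 in all libraries (*Aif1*), and their summed FPKM was 38.2 in wild type, 24.8 in tw18/+ and 63.5 in tw18/tw18. The largest part of each sum was *Lcp1*, at 17.4, 13.4 and 34.3, while *Csf1r* had 10.7, 4.02 and 8.06. Of the 6 markers that could be compared between tw18/tw18 and wild type, 1 was higher (*Fcer1g*) and 0 were lower, with a median log2 ratio of 0.79. Of all genes, 13.8% were higher and 6.42% lower. The defining marker *Ptprc* (CD45) was at 0.248, 0.280 and 0.695 FPKM, *Cd53* at 0, 0.333 and 0.0186 and *Nkg7* at 0, 0 and 0.0641. The summed level of 6 stromal markers was 68.0, 89.3 and 428, that of 8 endothelial markers 42.0, 26.7 and 86.1 and that of 8 decidual markers 1691, 260 and 696. The decidual sum was carried by *Prl8a2* and *Prl3c1*, and each of the other 6 decidual markers was highest in tw18/tw18. The extra-embryonic ectoderm markers summed to 25.9, 22.8 and 53.4. The sums for stroma, endothelium, immune cells, extra-embryonic ectoderm and visceral endoderm were thus highest in tw18/tw18, as *Arpc1b* was, that for epiblast was lowest there, and the part of these cell types in the level of *Arpc1b* was not tested.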

How the data were processed

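RNA-seq of 3 libraries, 1 per genotype, was used. Per the labels and the study's methods, the authors prepared strand-specific libraries from total RNA, aligned paired reads of 50 bp against mm10 (GRCm38), and the deposited FPKM values came from Cuffdiff; the submitters' processing notes name TopHat2, Bowtie 1.0.0 and Cufflinks 2.2.1. The annotation given to Cuffdiff, its library normalization and its strand setting are not given in the sources used here. The members and gene lists were chosen with earlier results of these data known.

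Groups follow the genotype labels. Ratios are log2 ratios of FPKM without a pseudocount. A gene was called past the threshold when its ratio was at least 1 in either direction, both values were above 0 and the higher was at least 1. No test was run. FPKM holds no counts. Depth was therefore estimated from the spacing of low values of genes with a single transcript in GENCODE M21, with an allowance of 150 bp for fragment length. An FPKM of 0.0675 in wild type, 0.0477 in tw18/+ and 0.0483 in tw18/tw18 equalled 1 fragment on 1 kb, and 75.2% to 77.0% of the values used lay within 0.2 of a whole fragment. Fragment numbers are approximate, and their intervals (Clopper-Pearson, 95%) cover counting error only, since PCR copies are not independent molecules. The fold rule, the spacing and the intervals were also run on simulated data. How well the fold rule performs on the libraries themselves was not tested, since each genotype has 1 library.

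Named genes are all members, list genes past the threshold in tw18/tw18 against wild type, the 2 most abundant genes of each list, *Ppp2r1a*, and, beside *Actr3*, the 5 genes listed at 0 in wild type alone that ranked highest by the lower of their other 2 values; others were named after their values were seen. Python 3.11.15, numpy 2.4.6, pandas 2.3.3, scipy 1.17.1 and matplotlib 3.10.9 were used. Alternatives were pseudocounts, filters on low values, other thresholds, centring and rescaling.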

Additional observations from a re-analysis of the deposited data

How the results depend on the processing

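With 1 library per genotype, no library could be left out and the spread between embryos is unknown. No paired analysis was possible because each genotype has a single library. Rescaling to equal FPKM sums raised every log2 ratio of tw18/tw18 to wild type by 0.21 and centring on the median by 0.05. The rescaling moved the median of the Arp2/3 genes in tw18/tw18 against wild type from 0.17 to 0.38 and turned *Arpc4* from -0.17 to 0.04. A filter at an FPKM of 10 left 1 of 2 genes past the threshold in both comparisons of tw18/tw18, *Arpc1b*, since *Actr3b* is under it, and a log2 threshold of 0.5 gave 4 in each, with *Arpc1a* and *Arpc5* added. Between tw18/+ and wild type the number went from 0 to 1 with a pseudocount of 1 or of 0.1, or when a gene listed at 0 was counted, an alternative chosen after seeing the data. The same alternatives took the number in tw18/tw18 against wild type from 2 to 3. The added gene was *Actr3* in both comparisons, and its size in a ratio is set by the pseudocount. With a pseudocount of 1, the log2 ratio of *Actr3b* in tw18/tw18 moved by 0.47. With a minimum of 1 FPKM in the other libraries in place of 10, 31 genes were listed at 0 in wild type alone. Of 92 alternative values, 17 moved beyond the counting interval or by over 1.5 times, and 0 called values changed sign. The ratios of *Arpc1b* to *Arpc1a* and of *Arpc5l* to *Arpc5* were run with a pseudocount of 1 only and did not move. That pseudocount is small beside the levels of these genes, so little movement was possible.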
